A study of Rattus norvegicus with 6 samples.

Results

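The EGF receptor genes and their ligands were followed in rat chondrocytes, the cells that make and maintain cartilage matrix. The 8 genes were taken by symbol from the 18420 genes of the deposited table: the receptors Egfr, Erbb2 and Erbb3, the ligands Hbegf, Areg, Ereg and Tgfa, and the receptor inhibitor Errfi1. RNA sequencing was done on 6 libraries of primary chondrocytes from wild-type male Sprague-Dawley rats of 180 to 220 g, whose age was not given. The TNF-α group (3 libraries) was treated with 10 ng/mL TNF-α, an inflammatory cytokine, for 6 h. The TNF-α+NFL group (3 libraries, called NFL below) received the same TNF-α for 6 h and then NFL, the cell-free freeze–thaw lysate of Nanofat cells from rat abdominal fat, for another 24 h. All 6 libraries therefore carried TNF-α, and no untreated library was analysed here. Harvest times were not stated, and by the treatment times NFL and a harvest at 30 h instead of 6 h cannot be told apart. The cells were used at the third passage. The study calls the replicates independent and biological without saying whether they came from separate animals. The p-values therefore measure the spread between these samples, which may be technical. Every direction below follows the deposited group labels. The column heads of a table published with the study, read as they stand, would give the opposite signs, so each sign depends on these labels, which were taken as deposited, and the sizes and p-values do not.

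EGF family ligands are made as membrane-bound precursors that metalloproteases, above all ADAM17, cut from the cell surface. HB-EGF (Hbegf), TGF-α (Tgfa), amphiregulin (Areg) and epiregulin (Ereg) bind EGFR, which pairs with itself or with ErbB2 or ErbB3 and signals through RAS and ERK, and MIG6 (Errfi1) binds the activated receptor kinase and shuts it off. In cartilage, EGFR signaling is known both for keeping the surface chondrocytes of the joint alive and lubricated and for driving matrix-degrading enzymes, and mice without MIG6 develop degenerative joint disease.

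A pair of sequences is shown because they belong to the ligands at either end of the range of level described here, Hbegf with the highest RNA and Areg with the lowest of the 4 ligands. Each is the run of 250 bases before the RefSeq gene start in GRCr8, 5′ to 3′ on the strand of the gene. The Hbegf run is chr18:28390221-28390470 on the minus strand and the Areg run is chr14:17265642-17265891 on the minus strand. Capitals mark matches on either strand to the cAMP response element TGACGTCA, its shorter form TGACG, the GC box GGGCGG and the TATA box TATAAA.
Hbegf: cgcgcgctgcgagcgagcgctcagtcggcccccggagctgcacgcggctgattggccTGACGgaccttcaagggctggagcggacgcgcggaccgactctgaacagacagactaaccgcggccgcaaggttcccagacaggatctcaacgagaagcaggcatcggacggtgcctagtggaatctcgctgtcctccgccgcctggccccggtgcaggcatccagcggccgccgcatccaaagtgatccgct
Areg: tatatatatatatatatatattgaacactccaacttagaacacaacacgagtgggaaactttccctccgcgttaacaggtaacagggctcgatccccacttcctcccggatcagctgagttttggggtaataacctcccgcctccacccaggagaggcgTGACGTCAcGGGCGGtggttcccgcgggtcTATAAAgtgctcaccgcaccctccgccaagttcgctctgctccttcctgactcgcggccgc
The Areg run held the full element TGACGTCA, which contains TGACG on both strands, followed by a GC box and a TATA box. Of 33469 RefSeq promoters of the same length, 1.59% held TGACGTCA, 18.2% held TGACG, 30.5% held the GC box and 12.9% held the TATA box. The Hbegf run held a single TGACG. Promoter sequences were found for 6 of the 8 genes. The full element was in no other of the 6, and the Errfi1 run held TGACG, a GC box and a TATA box. The AP-1 letters TGANTCA, found in 6.34% of all promoters, were in none of the 6 windows. The κB motif was searched in a single narrow form, found in 1.30% of all promoters, and that form was in none of the 6 either. Looser forms of the κB motif were not searched, so its absence from these windows is not shown. These matches describe letters only.

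The libraries were of like depth, between 19344893 and 19725135 estimated counts. TNF-α replicates 1 and 3 lay at the opposite ends of the first principal component (29.6% of the variance), with the NFL replicates between them. The chondrocyte label was checked against marker genes. Prg4 (lubricin, mean 1100 transcripts per 1e6, TPM), the cartilage collagen Col11a1 (460 TPM) and the fibroblast-type marker Thy1 (2565 TPM) were abundant, whereas Col2a1, the main collagen of cartilage, stood at 8.47 TPM and the cartilage markers Matn1 and Cnmd were close to 0. Col2a1 had 381, 353 and 399 counts in the TNF-α libraries and 413, 452 and 466 in the NFL libraries (edgeR adjusted p = 0.22), and Col11a1 had 31097 to 32457 and 35588 to 39025 counts (edgeR adjusted p = 0.052). Neither pair of ranges overlapped, and in CPM 16.8% of all tested genes had groups that did not. Col9a1 was apart as well, at 27 to 31 and 34 to 42 counts. The ranges of the other chondrocyte markers overlapped. Prg4 had 36305 to 47186 and 36574 to 42757 counts, Comp 201 to 220 and 181 to 235, and Hapln1 228 to 252 and 217 to 231. Acan had 324 to 398 and 350 to 418, and Sox9 165 to 197 and 167.5 to 204. Mmp13, a collagenase that degrades cartilage matrix, named after its value was seen, was lower in the libraries labelled NFL, at a log2 fold change of -0.31 (SE 0.050, edgeR adjusted p = 0.017). The cytokine gene Il6, looked at beside it, was slightly higher in those libraries and did not pass an adjusted p of 0.05. These signs too are those of the deposited labels. The summed TPM of the 11 chondrocyte markers was 1387 to 1816 in the TNF-α group and 1526 to 1681 in the NFL group, and that of the 6 fibroblast-type matrix genes was 5028 to 5580 and 5608 to 5777, so that the latter did not overlap between the groups. Summed epithelial markers (5 of 6 listed) were at 1.43 to 2.50 and 1.04 to 1.91 TPM, endothelial markers (4 of 5 listed) at 0.200 to 0.330 and 0.160 to 0.290 TPM with Kdr at 0 counts throughout, and adipocyte markers, nearly all Fabp4, at 30.3 to 31.1 and 31.7 to 36.05 TPM. Macrophage markers (4 of 6 listed), nearly all Cd14 and Cd68, summed to 104.6 to 113 and 98.2 to 101 TPM. The adipocyte and macrophage sums did not overlap either, although none of the markers tested passed an adjusted p of 0.05, and the part of these sums in the results below was not tested. The defining macrophage receptor Csf1r had 40 counts in TNF-α replicate 1 against 1 to 7 in the other libraries, and Ptprc had 7 against 0 to 2. The abundant markers of the list did not stand apart there, with Cd14 at 1022 counts against 899 to 1089 and Cd68 at 491 against 387 to 502.

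Of the 8 genes, Hbegf stood apart in level, and none passed an adjusted p of 0.05 between the groups. Levels of different genes were compared in TPM, which accounts for transcript length. The mean TPM over the 6 libraries was 141 for Hbegf, 34.9 for Errfi1, 12.7 for Egfr, 11.1 for Ereg, 10.5 for Erbb2, 6.40 for Tgfa, 0.878 for Areg and 0.160 for Erbb3. Hbegf RNA was above 93.5% of all listed genes, and 4.05 times the next gene, Errfi1. Hbegf exceeded Errfi1, Errfi1 exceeded Egfr, Erbb2 exceeded Tgfa, Tgfa exceeded Areg and Areg exceeded Erbb3 in 6 of 6 libraries with no overlap of the ranges. Ereg could not be ordered against the receptor genes beside it, being below Egfr in 4 of 6 libraries and above Erbb2 in 3 of 6. Egfr was above Erbb2 in 6 of 6 libraries, although the ranges of the pair overlapped.

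**Figure D1:**
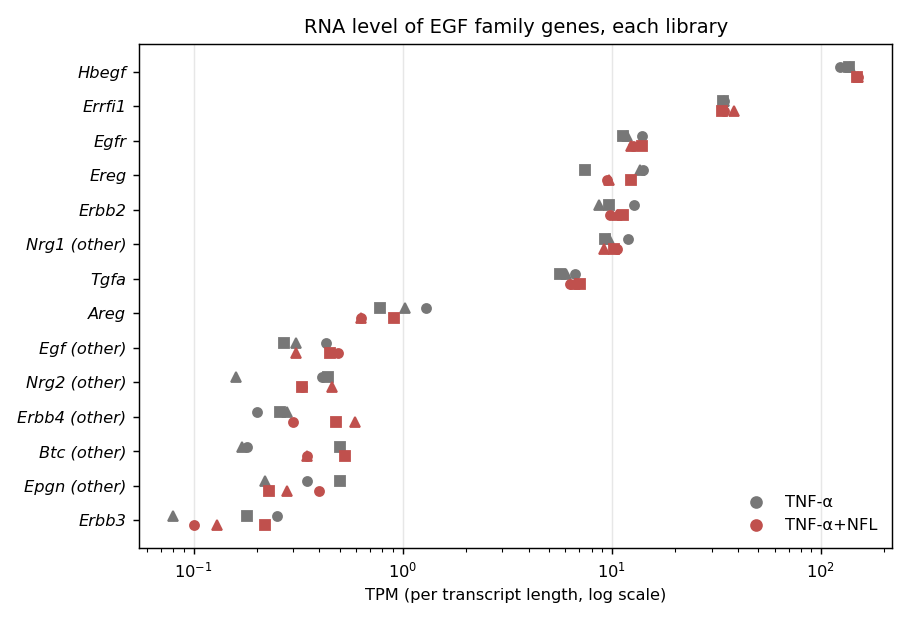
RNA level in TPM (log axis) of the 8 genes and of the other EGF family genes detected in every library, ordered by mean. Each point is a library, gray for TNF-α and red for TNF-α+NFL, with circles, squares and triangles for replicates 1, 2 and 3. Hbegf, at 123 to 151 TPM, lies to the right of all others, and Areg, Erbb3 and most of the other ligands lie near or below 1 TPM.

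Egfr, Erbb2 and Erbb3 did not differ detectably between the groups, and in each the ranges overlapped. Egfr (Entrez gene 24329) had normalized counts of 55.3, 50.0 and 51.2 counts per 1e6 counts (CPM) in TNF-α replicates 1, 2 and 3 and of 52.1, 56.5 and 50.8 in NFL replicates 1, 2 and 3. The highest and the lowest Egfr library came from different groups, and each group spanned most of the other. Egfr differed by a log2 fold change of 0.026 (SE 0.056, 95% interval -0.095 to 0.15, adjusted p = 0.92 by edgeR with Benjamini-Hochberg adjustment), so that the interval ran from 0.937-fold to 1.11-fold. In bulk RNA, fewer cells of a type and less RNA per cell cannot be told apart. The sign of this value was not stable: it was -0.020 without NFL replicate 2 and -0.00026 without TNF-α replicate 2.

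Erbb2 (Entrez gene 24337), the partner receptor that binds no known ligand of its own, was at 30.7, 23.8 and 21.6 CPM in the TNF-α replicates and at 23.6, 26.8 and 25.6 CPM in the NFL replicates. TNF-α replicate 1 was the highest of the 6 and TNF-α replicate 3 the lowest, so both ends lay within 1 group. Erbb2 had a log2 fold change of -0.00086 (SE 0.13, 95% interval -0.30 to 0.30, edgeR adjusted p = 1.00). Without TNF-α replicate 1 it was 0.16 (unadjusted p = 0.037, edgeR adjusted p = 0.21).

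Erbb3 (Entrez gene 29496), which binds neuregulins and has a weak kinase, was close to the detection limit, with 12, 11 and 5 counts in the TNF-α libraries and 5, 13 and 8 in the NFL libraries. The group sums, 28 and 26 counts, allowed no comparison finer than a 95% interval of the fold from 0.476 to 1.80 in the same fit (log2 fold change -0.11, SE 0.44, edgeR adjusted p = 0.97). Erbb4, the remaining receptor of the family, had 8, 11 and 12 counts against 12, 19 and 24, a log2 fold change of 0.82 (SE 0.33, unadjusted p = 0.029, edgeR adjusted p = 0.37). Its groups did not overlap in CPM (0.419 to 0.607 against 0.613 to 1.22), although TNF-α replicate 3 and NFL replicate 1 each held 12 counts. Egfr made up 53.6% ± 2.78 (SD, n = 3) of the summed TPM of the 4 receptors with TNF-α and 53.6% ± 1.56 (SD, n = 3) with NFL.

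**Figure D2:**
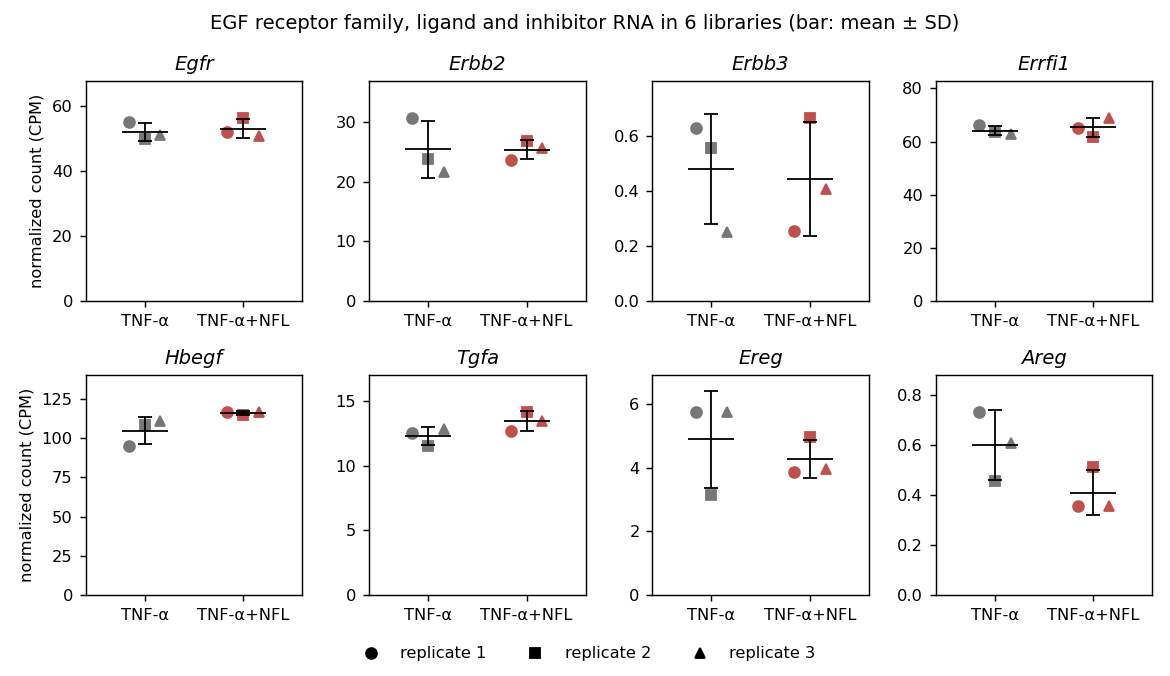
Normalized counts (CPM, axes from 0) of the 8 genes in each library, with the mean and SD of each group (n = 3). The 3 TNF-α+NFL libraries of Hbegf, at 115 to 117 CPM, lie above the 3 TNF-α libraries at 95.01 to 111, and the groups overlap in each of the other 7 genes.

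Among the ligands, Hbegf (Entrez gene 25433) was the gene whose groups separated. It was at 95.01, 108 and 111 CPM in TNF-α replicates 1, 2 and 3 and at 117, 115 and 117 CPM in NFL replicates 1, 2 and 3. Each NFL library was above each TNF-α library, and the NFL libraries were far closer to each other, with an SD of 1.17 against 8.45 CPM. The log2 fold change was 0.15 (SE 0.053, 95% interval 0.033 to 0.26), or 1.11-fold, with an unadjusted p of 0.015 and an edgeR adjusted p of 0.30 over the 13250 genes tested. The difference thus did not pass the threshold, and the exact permutation test over samples gave p = 0.10 (two-sided), the smallest that 3 against 3 allow. So 1 of the 8 genes had groups that did not overlap and 1 of 8 an unadjusted p under 0.05, both of them Hbegf. Of all tested genes, 16.8% had groups that did not overlap (8.66% higher and 8.17% lower with NFL) and 11.1% an unadjusted p under 0.05 (5.66% higher and 5.45% lower). The adjusted threshold was passed by 0 of the 8 and by 0.611% of all genes (0.408% higher and 0.204% lower), or 54 higher and 27 lower genes.

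The size of the Hbegf difference rested in part on TNF-α replicate 1, the lowest of the 6 libraries. This library also held the Csf1r counts given above, whereas its Cd14 and Cd68 counts lay within the range of the others, and the part of either in the result was not tested. Without it the log2 fold change was 0.085 (edgeR adjusted p = 0.20), against 0.14 to 0.19 with any other library left out. In TPM, Hbegf was at 123, 136 and 138 in the TNF-α group and at 151, 150 and 151 in the NFL group, and the groups separated in FPKM as well. When each library's trend with transcript length was removed, an alternative chosen after the data had been seen, the log2 fold change was 0.18 with an adjusted p of 0.029, by edgeR, where 1.75% of all genes passed (1.12% higher and 0.634% lower).

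Tgfa (Entrez gene 24827), the EGFR ligand long studied in joint cartilage, was at 12.6, 11.5 and 12.8 CPM in the TNF-α replicates and at 12.7, 14.2 and 13.5 CPM in the NFL replicates. The lowest NFL library lay within the TNF-α range and the others above it. The log2 fold change was 0.13 (SE 0.080, 95% interval -0.046 to 0.30, edgeR adjusted p = 0.61), and it was positive in each fit that left out 1 library, from 0.085 to 0.17.

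Ereg (Entrez gene 59325) was the most variable of the well-counted ligands. It was at 5.76, 3.14 and 5.76 CPM in the TNF-α replicates and at 3.88, 4.97 and 3.97 CPM in the NFL replicates. TNF-α replicate 2 was the lowest of the 6 and the other TNF-α libraries the highest, a coefficient of variation of 31.0% in that group against 14.1% in the NFL group. The log2 fold change was -0.19 (SE 0.22, 95% interval -0.70 to 0.31, edgeR adjusted p = 0.83), and leaving out TNF-α replicate 2 gave -0.43, whereas leaving out TNF-α replicate 3 gave -0.052.

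Areg (Entrez gene 29183), the ligand of the promoter with the full TGACGTCA, had 14, 9 and 12 counts in the TNF-α libraries and 7, 10 and 7 in the NFL libraries. The groups overlapped through TNF-α replicate 2 and NFL replicate 2. With 35 against 24 counts in all, the log2 fold change was -0.54 (SE 0.35, 95% interval -1.31 to 0.22, edgeR adjusted p = 0.63), the largest of the 8 in size, with an interval second in width to that of Erbb3. Its value stayed negative with any 1 library left out, from -0.73 to -0.37.

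Of the other ligands, neuregulin 1 (Nrg1), which binds ErbB3 and ErbB4, was well expressed at a mean of 10.2 TPM, and its log2 fold change was -0.036 (edgeR adjusted p = 0.90), turning to 0.0038 without TNF-α replicate 1. Egf itself was at 0.377 TPM, with a log2 fold change of 0.28 (SE 0.32, edgeR adjusted p = 0.82), and from 0.13 to 0.46 with 1 library left out. Btc, Epgn, Nrg3 and Nrg4 did not reach the filter on low counts, and Nrg3 had 0 counts in every library. Summed over the 7 listed ligands of EGFR (Hbegf, Areg, Ereg, Tgfa, Egf, Btc and Epgn), ligand RNA was at 146, 151 and 159 TPM in the TNF-α group and at 168, 171 and 169 TPM in the NFL group. Hbegf supplied 84.2% to 89.9% of this sum in the TNF-α libraries and 87.4% to 89.5% in the NFL libraries. The summed levels of the groups did not overlap, and the shares of Hbegf did.

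The inhibitor gene Errfi1 (Entrez gene 313729) was the steadiest of the 8 within the TNF-α group. It was at 66.2, 63.5 and 62.7 CPM in the TNF-α replicates and at 65.2, 61.8 and 68.9 CPM in the NFL replicates. Both the highest and the lowest library were of the NFL group, which enclosed the TNF-α range. The log2 fold change was 0.026 (SE 0.050, 95% interval -0.081 to 0.13, edgeR adjusted p = 0.91), and it turned to -0.013 without NFL replicate 3. Its TPM was 2.79 ± 0.280 (SD, n = 3) times that of Egfr with TNF-α and 2.75 ± 0.350 (SD, n = 3) times with NFL.

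**Figure D3:**
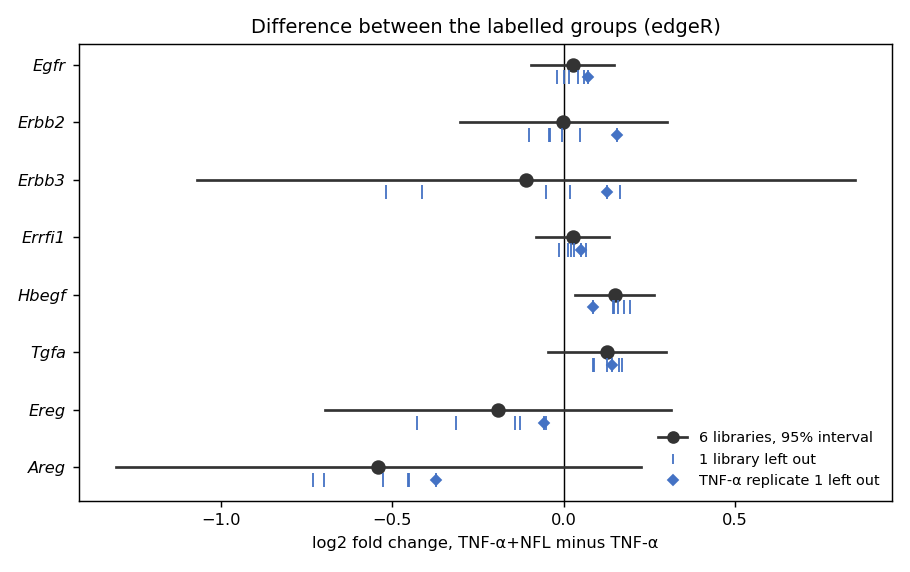
Log2 fold change of the 8 genes between the labelled groups, positive where TNF-α+NFL was higher. Black points and lines are the value and 95% interval over 6 libraries, blue ticks the values with 1 library left out and blue diamonds those without TNF-α replicate 1. Hbegf alone has an interval that leaves out 0, from 0.033 to 0.26, and the intervals of Erbb3 and Areg are the widest.

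Across the 6 libraries, Pearson correlations of log2 CPM between pairs of the 8 genes ran from -0.84 (Hbegf and Areg) to 0.78 (Areg and Ereg), as a description over 6 points that share their library and group. Both ends involve Areg, which had only 7 to 14 counts a library. Egfr and Erbb2, both well counted, correlated at 0.71 and were each high in TNF-α replicate 1 and NFL replicate 2. The genes whose pattern was most like Egfr were Lrch4 (0.999), LOC102547059 (0.994) and RGD1310429 (0.992). Those most like Hbegf were Myh9l1 (0.990), Eif5a2 (0.988) and F3 (0.986), each with NFL above TNF-α in all libraries, as were 8.66% of all tested genes. They were picked for likeness to Hbegf over the same libraries, so their separation adds nothing to that of Hbegf. A value of 0.9 was reached with Egfr by 131 genes, or 0.989% of the 13247 compared, and with Hbegf by 155, or 1.17%.

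The other genes of the pathway were compared as 6 lists of 112 symbols in all, of which 103 were tested. Ptgs2 was the only one of these past an adjusted p of 0.05, which is 0.971% of the lists against 0.611% of all tested genes. An unadjusted p under 0.05 was found for 23 of the 103 (22.3%, against 11.1% of all genes), 13 of them higher and 10 lower in the NFL libraries, and 26 (25.2%, against 16.8%) had groups that did not overlap. The median log2 fold change was 0.027 over the 103 genes and -0.0035 over all tested genes. Whether these shares are particular to the pathway was not tested.

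Ligand release was covered by 10 genes, and the smallest p was for Cd9, a membrane protein that associates with the HB-EGF precursor. Cd9 was at 57.4, 58.1 and 61.4 CPM in the TNF-α replicates and at 53.2, 53.9 and 52.0 CPM in the NFL replicates. Its groups did not overlap, with a log2 fold change of -0.15 (SE 0.046, unadjusted p = 0.0056, edgeR adjusted p = 0.21). Adam17, the main sheddase, was at 276 ± 3.48 (SD, n = 3) and 287 ± 1.18 (SD, n = 3) CPM in the same order (log2 fold change 0.055, edgeR adjusted p = 0.63). The Adam17 groups did not overlap either, with NFL higher. None of the 10 passed an adjusted p of 0.05, and 2 (20%) had groups that did not overlap, against 16.8% of all tested genes.

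Of the 28 tested genes for receptor adaptors and turnover, 0 passed the adjusted threshold and 5 (17.9%) had an unadjusted p under 0.05, against 11.1% of all tested genes. Socs3, a feedback inhibitor of cytokine signaling, had a log2 fold change of -0.26 (SE 0.075, edgeR adjusted p = 0.21), from 51.2 to 60.6 CPM in the TNF-α libraries and from 42.8 to 50.1 CPM in the others. Cblb, a ubiquitin ligase of the family that marks activated EGFR for breakdown, had a log2 fold change of 0.14 (SE 0.048, edgeR adjusted p = 0.25), from 66.2 to 71.6 and from 72.5 to 77.7 CPM. Both pairs of ranges were separate. In the cascade from RAS to ERK and PI3K, 0 of 21 genes passed and 5 (23.8%) had an unadjusted p under 0.05, led by Map2k2 (MEK2) at a log2 fold change of -0.13 (edgeR adjusted p = 0.33), or -0.16 to -0.076 with 1 library left out. Ksr1, named after its value was seen, had a log2 fold change of 1.19, with 0 to 1.57 CPM in the TNF-α libraries and 0 to 2.71 CPM in the NFL libraries (edgeR adjusted p = 0.86), and ran from 0.42 to 2.99 with 1 library left out.

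Feedback inhibitors of ERK signaling, many of which ERK itself induces, showed 0 of 12 genes past the adjusted threshold and 0 with separate groups, where 0.611% and 16.8% of all tested genes were, and 1 had an unadjusted p under 0.05. Spry2 had the smallest p, at 46.0 ± 2.70 (SD, n = 3) CPM with TNF-α and 42.0 ± 1.56 (SD, n = 3) with NFL (log2 fold change -0.13, SE 0.056, edgeR adjusted p = 0.39). Dusp1 followed at 0.081 (edgeR adjusted p = 0.56). With 1 library left out, Spry2 ran from -0.17 to -0.083 and Dusp1 from 0.044 to 0.13. The list named immediate and delayed ERK targets, drawn from general knowledge and including Elk1 and Elk3, had the most low p-values. In it, 10 of 28 were under an unadjusted 0.05, 5 in each direction, with a median of 0.00080. That is 35.7% of the list, against 11.1% of all tested genes (5.66% higher and 5.45% lower).

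Ptgs2, which encodes cyclooxygenase-2 and is induced by TNF-α as well as by EGFR, was lower in the NFL libraries. It was at 74.4, 67.3 and 71.9 CPM in the TNF-α replicates and at 57.2, 59.1 and 62.3 CPM in the NFL replicates, with no overlap. It differed by -0.26 on the log2 scale (SE 0.051, edgeR adjusted p = 0.039). It was past 0.05 in 1 of the 6 fits that left out a library, that without TNF-α replicate 1, where it was -0.23, and the adjusted p ran from 0.11 to 0.31 in the other 5 edgeR fits. The call was also lost with the replicate number as a block (edgeR adjusted p = 0.077) and with limma on log2(FPKM + 1) and log2(FPKM + 0.1), where the adjusted p was 0.17 and 0.16. The log2 fold change was -0.26 with the block, -0.25 on both FPKM scales and -0.29 to -0.23 with 1 library left out. Fosl1, an AP-1 subunit that follows ERK activity in many cells, was at 44.6, 50.7 and 50.9 CPM and at 41.2, 40.5 and 41.5 CPM in the same order. Its groups were separate as well, with a log2 fold change of -0.25 (SE 0.057, edgeR adjusted p = 0.080).

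**Figure D4:**
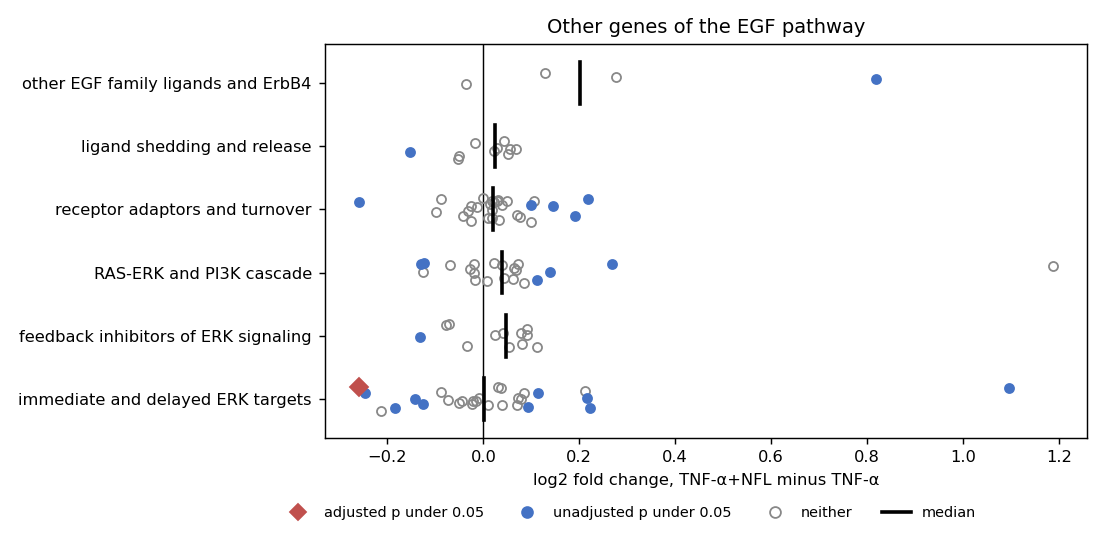
Log2 fold change of the 103 tested pathway genes by list, positive where TNF-α+NFL was higher. Red diamonds passed an adjusted p of 0.05, blue points an unadjusted p of 0.05, open circles neither, and black bars are list medians. Ptgs2, at -0.26, is the single red diamond.

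Without TNF-α replicate 1, 12 of the 103 pathway genes (11.7%) passed an adjusted p of 0.05, in a fit where 6.94% of all genes did (3.43% higher and 3.51% lower). Named after their values were seen, the 5 higher genes were Cblb, Cbl, Ptprj, Ptpn11 and Egr3, and the 7 lower ones were Ptgs2, Fosl1, Ccnd1, Ier3, Cd9, Map2k2 and Hras. Egr3 was near the detection limit, at 0.202 to 0.523 CPM in the TNF-α libraries and 0.613 to 0.717 CPM in the NFL libraries. Cbl and Cblb encode ubiquitin ligases for activated receptors, and Ptprj and Ptpn11 encode tyrosine phosphatases. Each of these 12 genes passed in this 1 of the 6 fits that left out a library and in no other, and Hbegf and the other 7 genes did not pass in any of the 6.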

How the data were processed

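RNA was sequenced as single-end reads of poly(A)-selected RNA from 6 libraries of rat chondrocytes. The submitters' processing notes name HISAT2 2.0.4, Bowtie2 2.2.5, RSEM 1.2.12 and the build Rnor_6.0, without their roles. Per gene and library, the authors deposited an estimated count without normalization, in part with decimals. The FPKM and TPM values, which the authors deposited beside it, are scaled to transcript length and library size, TPM to a sum of 1e6. Depth was 19344893 to 19725135 estimated counts a library, so that genes of 5 to 14 counts had wide intervals.

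Rounded counts were fitted without covariates in R 4.3.3 by the robust quasi-likelihood test of edgeR 4.0.16 (two-sided, TMM, genes kept by filterByExpr), and p-values were adjusted by Benjamini-Hochberg over all 13250 genes kept. All 8 genes passed the filter. CPM are counts per 1e6 after TMM. SE and 95% intervals were derived from the F statistic, and the fit was tested on simulated data. Single genes had exact permutation tests over samples (SciPy 1.17.1). Alternatives were other filters, DESeq2 1.42.0, limma 3.58.1 (voom, or log2 of FPKM plus 1 or 0.1), the replicate number as a block, each library left out, and, added after the data were seen, removal of each library's trend with transcript length.

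Named were the 8 genes, pathway genes past an adjusted p of 0.05 and the 2 of smallest p in each list, the 3 genes most like Egfr and the member of smallest p, and the highest and absent cell type markers. Of these, 1 pathway gene is not reported here. Other markers are named because they define a cell type. The members and lists were chosen with earlier results of these data known. Pathway lists came from general knowledge and support nothing by themselves. Promoters were read from RefSeq (GRCr8), and no other coordinates were used. Genes whose reads are shared with a near-identical copy are uncertain.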

Additional observations from a re-analysis of the deposited data

How the results depend on the processing

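The DESeq2 Wald test gave no adjusted p for 5 of the 8 genes. Among the adjusted p-values that the alternatives gave, 1 was past 0.05, that of Hbegf, at a log2 fold change of 0.18 with the trend with transcript length removed, an alternative added after the data were seen. Hbegf was positive in each of its 15 alternatives, from 0.085 to 0.19, with adjusted p from 0.029 to 0.64. That trend removal also turned Egfr to -0.021. Erbb2, near 0, turned to 0.0015 with at least 10 counts in every sample, 0.014 with limma-voom, 0.011 and 0.015 with limma on log2(FPKM + 1) and log2(FPKM + 0.1), and 0.0078 with the replicate block. On the same 2 FPKM scales, Areg was -0.17 and -0.44 and Erbb3 was -0.0086 and -0.043, against -0.54 and -0.11 in the main fit. Areg and Erbb3 were not tested where 10 counts were required. Over the fits that left out 1 library, Egfr ran from -0.020 to 0.071, Erbb2 from -0.10 to 0.16, Erbb3 from -0.52 to 0.17 and Errfi1 from -0.013 to 0.065. The order of the 8 genes by mean FPKM was that by mean TPM. The causes of these shifts were not tested.

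Against 54 higher and 27 lower genes over the whole table, there were 84 and 48 with no filter, 95 and 53 with the DESeq2 Wald test, 3 and 3 with limma on log2(FPKM + 1), 7 and 6 on log2(FPKM + 0.1), 25 and 9 with the replicate block, and 148 and 84 with the length trend removed. With 1 library left out they ran from 5 to 460 and from 0 to 470. The lowest were those without TNF-α+NFL replicate 1, where edgeR had 1035 genes at an unadjusted p under 0.05, and the highest those without TNF-α replicate 1. Against 0 higher and 1 lower gene of the wider pathway lists, there were 2 lower with no filter and with the Wald test, 0 on both FPKM scales and with the block, 3 with the length trend removed, and 0 to 5 higher and 0 to 7 lower with 1 library left out. The cause was not tested. Same-numbered replicates had deviations that correlated at -0.011, -0.024 and 0.080, so the replicate numbers were not taken as pairs. The depth, with 5 to 14 counts, limits Areg and Erbb3.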
